A study of Mus musculus with 19 samples.

Results

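Chromatin accessibility of mouse cells kept for 72 h in differentiation medium with tumor necrosis factor (TNF) was compared with that of neurosphere cultures (NSPs), from which the cells were derived. The comparison used 6 of the 19 ATAC-seq libraries of the series, 3 of 72 h with TNF and 3 of NSPs. Of the 90154 peaks in the deposited table, 89051 were retained. The 1103 peaks left out had 3 reads or fewer in all 10 libraries whose names hold the tag Luc. Of these, 212 had at least 20 reads in each of the 9 libraries without the tag, and 858 had 10 reads or fewer in each of them. The median of the mean NSP values was 0.57 over the peaks left out and 1.59 over the 131 peaks just inside the limit, which had 4 to 6 reads in their highest tagged library.

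All cells came from the ventricular zone of single brains of wild type C57BL/6J mouse embryos at embryonic day 14. NSPs grew as free floating spheres in proliferation medium with epidermal growth factor (EGF) and received no TNF. The 72 h TNF cells were plated on poly-L-ornithine in medium with fetal bovine serum and TNF at 50 ng/ml. The 72 h cells (3 libraries) had the same plating and serum without TNF, and the 24 h TNF cells (3 libraries) had serum and TNF for a shorter time. The labels call the cells astrocytes at every time, the NSP libraries included. Between 72 h TNF and NSPs, loss of EGF, serum, plating, time, TNF and the Luc tag changed together, so their parts cannot be told apart. The labels do not state what the tag is. Nor do they tie libraries to single brains or cultures, so the p-values measure only the spread between libraries. That spread was estimated from all 19 libraries in a single fit.

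NSPs are a mixed culture of neural stem and progenitor cells that divide in response to EGF and can give rise to astrocytes, neurons and oligodendrocytes. Serum drives such cells towards an astrocytic fate, with exit from the cell cycle and opening of glial genes. TNF acts through its receptors on the kinases that release NF-κB into the nucleus, where it binds short DNA motifs at inflammatory genes, and astrocytes exposed to it take on a reactive state. In ATAC-seq, a transposase inserts adapters into open DNA, so that open regulatory regions collect more reads. The cultures were measured in bulk, and fewer cells of a type and less accessibility per cell cannot be told apart.

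Promoter sequences of 6 genes that carry the main results are shown here, as the 250 bases before the gene start from RefSeq (GRCm38.p6), 5′ to 3′ on the strand of the gene. Cxcl10, Nfkbia, Fas and C3 had gene-start peaks that were higher after 72 h with TNF than in NSPs, and Hes5 and Mki67 had lower ones. In Cxcl10 and C3, capitals mark matches on either strand to GGANTTTCC (the NF-κB motif searched) and TGANTCA (AP-1). Only the first motif was marked in Nfkbia and only the second in Fas. In Hes5 and Mki67, capitals mark CCAAT alone, again on either strand. CCAAT was not marked in the other genes, and the Cxcl10 stretch also holds it, so the capitals do not compare the genes.
Cxcl10, chr5:92348890-92349139, minus strand: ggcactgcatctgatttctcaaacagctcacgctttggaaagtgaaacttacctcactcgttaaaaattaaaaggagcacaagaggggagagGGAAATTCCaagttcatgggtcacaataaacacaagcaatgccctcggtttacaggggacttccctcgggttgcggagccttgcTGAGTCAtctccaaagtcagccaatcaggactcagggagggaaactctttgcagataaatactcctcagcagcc
Nfkbia, chr12:55492648-55492897, minus strand: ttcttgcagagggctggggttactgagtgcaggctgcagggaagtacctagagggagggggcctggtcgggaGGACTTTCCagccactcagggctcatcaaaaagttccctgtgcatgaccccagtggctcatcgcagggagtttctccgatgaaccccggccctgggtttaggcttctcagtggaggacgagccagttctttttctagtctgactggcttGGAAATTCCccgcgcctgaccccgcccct
Fas, chr19:34290409-34290658, plus strand: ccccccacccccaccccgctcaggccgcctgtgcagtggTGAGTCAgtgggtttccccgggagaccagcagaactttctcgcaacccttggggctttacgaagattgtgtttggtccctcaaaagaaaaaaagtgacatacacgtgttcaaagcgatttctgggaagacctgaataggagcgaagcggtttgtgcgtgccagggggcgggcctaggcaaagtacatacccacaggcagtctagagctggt
C3, chr17:57228137-57228386, minus strand: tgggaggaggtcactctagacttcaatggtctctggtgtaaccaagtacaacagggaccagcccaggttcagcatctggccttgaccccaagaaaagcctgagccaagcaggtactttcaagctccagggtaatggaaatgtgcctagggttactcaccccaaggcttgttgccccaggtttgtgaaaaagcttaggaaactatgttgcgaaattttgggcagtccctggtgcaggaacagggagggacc
Hes5, chr4:154960673-154960922, plus strand: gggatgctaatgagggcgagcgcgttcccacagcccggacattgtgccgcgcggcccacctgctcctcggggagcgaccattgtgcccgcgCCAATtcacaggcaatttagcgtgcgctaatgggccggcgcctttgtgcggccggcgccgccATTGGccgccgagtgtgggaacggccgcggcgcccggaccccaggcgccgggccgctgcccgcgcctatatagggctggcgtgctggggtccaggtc
Mki67, chr7:135716380-135716629, minus strand: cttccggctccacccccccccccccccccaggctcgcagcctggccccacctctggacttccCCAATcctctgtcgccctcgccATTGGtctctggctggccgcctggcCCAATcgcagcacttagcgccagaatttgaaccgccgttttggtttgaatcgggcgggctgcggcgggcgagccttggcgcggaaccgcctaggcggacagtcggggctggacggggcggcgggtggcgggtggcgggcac
The Cxcl10 stretch held 1 match to the NF-κB motif and 1 to the AP-1 motif, the Nfkbia stretch 2 to the NF-κB motif, and the Fas stretch 1 to the AP-1 motif. The C3 stretch held neither. Hes5 held 2 CCAAT matches and Mki67 held 3. The share of G and C was 48% in Cxcl10, 52% in C3, 56.4% in Fas and 59.2% in Nfkbia, against 71.6% in both Hes5 and Mki67.

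Each value below is a normalised read count in a peak of the deposited table. Reads in peaks ranged from 28636739 to 39349111 in NSPs and from 11337790 to 18353733 at 72 h with TNF, so the NSP values rest on more reads. NSP replicate 1 stood apart from the other NSP libraries. Spearman correlations between NSP libraries ranged from 0.913 to 0.982, against 0.956 to 0.966 at 72 h with TNF. Within a group, the mean variance of the log2 values was 0.194 in NSPs and 0.101 at 72 h with TNF. The fit pooled the spread over all groups. The filter on low reads passed 88688 of the 89051 peaks. Differences are on the log2(value + 1) scale, which understates changes of low peaks, and a call is a limma-trend adjusted p under 0.05. No peak value lies under 1 read, so a value of 1 read may stand for none.

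Accessibility after 72 h with TNF differed from NSPs at most peaks. Of the 88688 peaks tested, 25826 (29.1%) were higher and 27237 (30.7%) were lower, and the median log2 difference was -0.04. Without NSP replicate 1, the calls were 26372 higher and 27110 lower. Differences of at least 2 on the log2 scale were found at 7378 higher and 2933 lower peaks. Scaling by the total reads in peaks raised the median of all peaks to 0.15 and gave 31207 higher and 20669 lower calls, so that 60.2% of calls were higher against 48.7% with the deposited scaling. Directions close to 0 therefore depend on the scaling.

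The balance was different at gene starts. A gene-start peak has its centre within 1 kb of the start of a protein-coding gene, or of either end where no strand was given. Of 13441 such peaks, 1203 (8.95%) rose and 6316 (47%) were lower than in NSPs, with a median difference of -0.30. Of the 75247 peaks elsewhere, 24623 (32.7%) were higher and 20921 (27.8%) were lower, with a median of 0.06. The lower calls also outnumbered the higher ones at gene starts under total-read scaling (2166 higher, 4106 lower) and under loess offsets (2001 higher, 4719 lower). Peaks 1 to 10 kb from a start were called higher in 33% and lower in 25.7% of cases, and peaks over 100 kb away in 32% and 31.8%. With peaks ranked into 4 bins by mean value, the highest bin elsewhere had 37.2% higher and 35.8% lower.

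**Figure D1:**
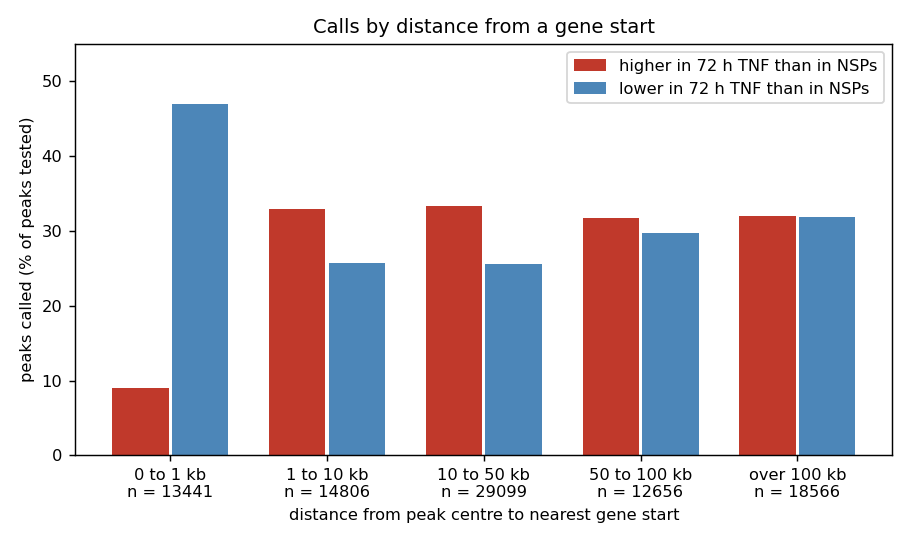
Share of peaks called higher (red) or lower (blue) at 72 h with TNF than in NSPs, in percent of the peaks tested, by distance from the peak centre to the nearest gene start. Within 1 kb, 8.95% were higher and 47% lower, while in the 4 more distant bins the higher share lay between 31.7% and 33.4%.

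The promoters of the genes whose start peaks rose or fell also differed in base composition. A RefSeq promoter window of 300 bases (250 before and 50 after the start) was found for 10385 gene-start peaks. The median share of G and C was 61.7% over all of them, 56% over the 843 windows at higher peaks and 65.3% over the 4972 at lower peaks. The median number of CpG dinucleotides was 21, 11 and 25 in the same order. The read depth per library and the base composition move with the groups or the calls here, and their part in the result was not tested.

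**Figure D2:**
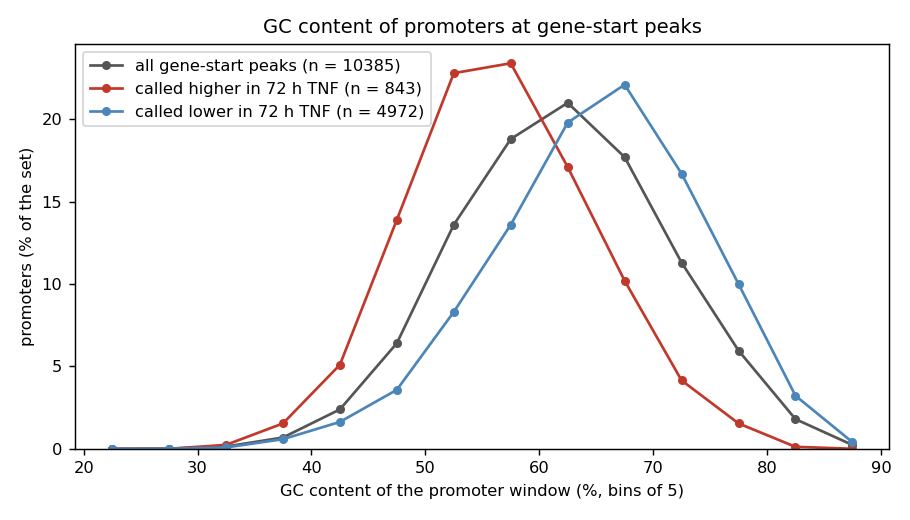
Distribution of the share of G and C in 300-base promoter windows, in bins of 5%, as a percent of each set, for all gene-start peaks with a window (n = 10385) and those called higher (n = 843) or lower (n = 4972) at 72 h with TNF than in NSPs. The median is 56% for the higher set and 65.3% for the lower set.

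Motif matches were counted on both strands of the same windows, as a description. TGANTCA (AP-1) was found in 10.9% of windows at higher peaks and 3.24% at lower peaks, against 4.66% over all gene-start peaks and 6.99% over all 21006 promoters in the reference. GGAATG (the TEAD motif) was found in 17.4%, 9.81%, 12% and 13.5%, in that order. TATAAA (the TATA box) was found in 10.7%, 5.77%, 6.82% and 12.5%. GGANTTTCC (NF-κB) was found in 1.54%, 0.925%, 1.17% and 1.29%. Shares of CCAAT (38.1%, 37.8%, 38.6% and 38.2%) and of TGANNNNGC, the core of the antioxidant response element (44%, 42.5%, 42.7% and 41.7%), lay within 3 percentage points of each other. The higher windows have fewer G and C bases, which bears on how often AT-rich letters occur. At the 309 windows whose peaks were higher with TNF than without it at 72 h, GGANTTTCC was found in 4.85% and TGANTCA in 12%. At the 82 windows whose peaks were lower with TNF, the shares were 1.22% and 17.1%.

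Gene groups were described by the peak closest to the start of each member, beside the background of 8.95% higher, 47% lower and a median of -0.30 over all gene-start peaks. The lists were chosen with earlier results of these data known, and some hold genes that the study named. Their counts are therefore not independent evidence of a direction. Of the genes in the NSP identity list, 19 of 20 had such a peak, of which 2 were higher and 15 lower, with a median difference of -0.70. Of the proliferation list, 19 of 20 had a peak, 0 were higher and 16 lower, with a median of -0.53. The count of 0 held for limma-trend, edgeR and DESeq2 and at an unadjusted p under 0.05, while total-read scaling called 1 higher and loess offsets 2. Both counts of lower calls shrank with total-read scaling, to 11 and 12. The reactive astrocyte list showed the opposite: of 17 members with a peak, 11 were higher and 0 lower by limma-trend, edgeR and DESeq2 (1 lower at an unadjusted p under 0.05), with a median of 0.69. The interferon and antigen presentation list had 10 of 18 higher and 0 lower by limma-trend, with a median of 0.47, where Tap1 and Psmb9 share a peak. EdgeR and DESeq2 each called 12 of them higher and 0 lower, and 0 were lower at an unadjusted p under 0.05.

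**Figure D3:**
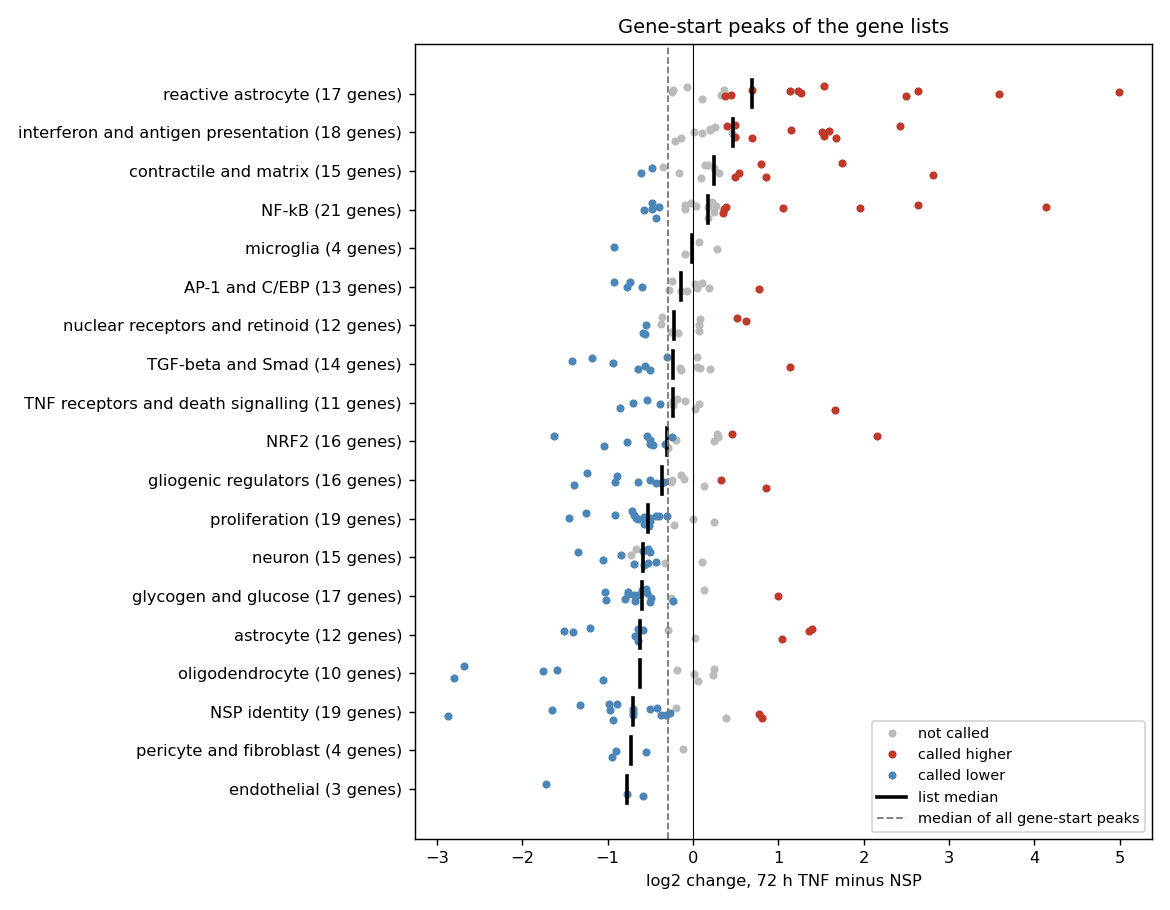
Log2 difference between 72 h with TNF and NSPs at the gene-start peak of each list member, with called peaks in red (higher) or blue (lower), the median of each list as a bar and the median of all gene-start peaks (-0.30) as a dashed line. The highest list median is that of reactive astrocyte genes (0.69) and the lowest that of endothelial genes (-0.77, from 3 peaks), with NSP identity at -0.70 and proliferation at -0.53.

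Among the reactive astrocyte genes, C3, the central complement component, had values of 9.93, 3.77 and 7.31 in the NSP libraries and 259, 234 and 226 at 72 h with TNF. Every TNF library was far above every NSP library. The log2 difference was 4.99 ± 0.36 (SE, n = 3 per group, limma-trend adjusted p = 6.9e-13). The 72 h libraries without TNF had 45, 49 and 48.4 and lay between the groups, 2.31 below those with TNF (SE 0.36, adjusted p = 4.8e-05).

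Lcn2, which encodes the secreted iron carrier lipocalin, had 13.4, 7.54 and 3.32 in NSPs and 105, 79.8 and 106 at 72 h with TNF. The groups did not overlap, and the log2 difference was 3.58 ± 0.42 (limma-trend adjusted p = 2.1e-08). Its values without TNF at 72 h were 27, 33.5 and 38.2. The difference of 1.53 from those libraries (limma-trend adjusted p = 0.0151) lost its call without 72 h replicate 1 (0.0739), 72 h TNF replicate 1 (0.0608) or 72 h TNF replicate 3 (0.0652).

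Steap4, a metalloreductase of the cell surface, had 19.9, 13.7 and 21.3 in NSPs and 93.9, 106 and 120.0 at 72 h with TNF. These libraries did not overlap either, with a difference of 2.50 ± 0.29 (limma-trend adjusted p = 1.9e-08). Tm4sf1, a tetraspanin-like membrane protein, rose from a mean of 298 to 861 (log2 difference 1.53 ± 0.10). Osmr, the oncostatin M receptor, rose from 119 to 277 (1.23 ± 0.19), and Cp, the copper carrier ceruloplasmin, from 214 to 469 (1.13 ± 0.14). The members that did not pass included Timp1, an inhibitor of metalloproteases, with mean values of 59.1 in NSPs and 49.6 at 72 h with TNF, and Vim, a filament gene that NSPs also use, with 1080 and 914. Vim was called lower without NSP replicate 2 (adjusted p = 0.0497) or 72 h TNF replicate 3 (0.0411).

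Peaks beyond the gene starts of these genes were counted by nearest gene. Of 126 peaks nearest to reactive astrocyte genes, 64 (50.8%) were higher and 21 (16.7%) lower, beside 29.1% and 30.7% of all peaks. Of 40 peaks nearest to interferon and antigen presentation genes, 19 (47.5%) were higher and 2 (5%) lower.

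The NF-κB list, of subunits, inhibitors and targets, had 7 of 21 gene-start peaks higher and 5 lower than in NSPs, with a median difference of 0.17. Its counts moved to 12 higher and 3 lower under total-read scaling and under loess offsets, and to 10 and 4 without NSP replicate 1. Tnip1, which encodes a partner of the NF-κB inhibitor A20, had 6.43, 2.83 and 16.6 in NSPs and 131, 140.4 and 143 at 72 h with TNF. The lowest TNF library was above the highest NSP library, and the log2 difference was 4.13 ± 0.44 (limma-trend adjusted p = 2.7e-09).

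Without TNF at 72 h, Tnip1 had 19.3, 20.3 and 19.1, and the difference from those libraries was 2.76 ± 0.44 (limma-trend adjusted p = 6.6e-05). Cxcl10, a chemokine that attracts T cells and belongs to both the NF-κB and the reactive list, had 62.5, 47.6 and 47.8 in NSPs and 334, 304 and 347 at 72 h with TNF. The groups were apart, by 2.63 ± 0.22 (adjusted p = 2.2e-11), and the 72 h libraries without TNF (78.5, 104 and 51) reached into the NSP range. The Cxcl10 peak covers the start of the gene and the stretch shown above with both motifs.

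Nfkbia, the inhibitor that NF-κB itself induces, had 695, 694 and 693 in NSPs and 837, 929.7 and 969.7 at 72 h with TNF. All TNF libraries were higher, though the difference was small (0.39 ± 0.11, limma-trend adjusted p = 0.0025). Without TNF at 72 h the values were 476, 524 and 538, below those of NSPs, and the difference between 72 h with and without TNF was 0.83 ± 0.11 (adjusted p = 3.6e-06). Nfkbiz, a nuclear cofactor of NF-κB, had the same order, with means of 601 in NSPs and 761 with TNF (0.35 ± 0.11) and a difference of 0.89 ± 0.11 between 72 h with and without TNF.

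Of the subunits, Relb rose from a mean of 539 to 1115 (1.05 ± 0.10, limma-trend adjusted p = 4.0e-10). Nfkb2 had 297 and 380.2 (0.36 ± 0.12), a call lost with only the 2 groups fitted (adjusted p = 0.0509) and without NSP replicate 2 (0.077) or 72 h TNF replicate 2 (0.0632). Nfkb1 fell by 0.57 on the log2 scale. Rel fell by 0.44, a call lost under total-read scaling (adjusted p = 0.0618) and loess offsets (0.061). Rela had 489 and 568 and was not called by limma-trend (0.22). It was called higher by edgeR (adjusted p = 0.0414), DESeq2 (0.0482), total-read scaling (0.00271) and loess offsets (0.00229), and without NSP replicate 1 (0.0279). Of 130 peaks nearest to NF-κB genes, 61 (46.9%) were higher and 19 (14.6%) lower than in NSPs, beside 29.1% and 30.7% of all peaks.

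Upstream of NF-κB, the TNF receptor and death signalling list had 1 of 11 gene-start peaks higher and 4 lower, with a median difference of -0.23. The higher member was Fas, a death receptor, with 411, 397 and 407 in NSPs and 1117, 1358 and 1385 at 72 h with TNF. The groups did not overlap, and the difference was 1.66 ± 0.12 (limma-trend adjusted p = 3.9e-13). At 72 h without TNF the values were 634, 712 and 876, lower than with TNF by 0.80 ± 0.12. The adaptors Ripk1 and Tab2 fell by 0.86 and 0.70 on the log2 scale. The receptor gene Tnfrsf1a had means of 209 and 196, which did not pass the test.

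In the interferon and antigen presentation list, H2-K1, a class I heavy chain that presents peptides at the cell surface, had 127, 139 and 142 in NSPs and 456, 399 and 449 at 72 h with TNF. The TNF libraries were all higher, by 1.67 ± 0.15 (limma-trend adjusted p = 8.1e-11), and also higher than the 176, 203 and 195 without TNF at 72 h (1.18 ± 0.15). H2-K1 and H2-D1 are closely similar genes, so reads that fit both may have been placed at either. H2-D1 had means of 195 and 428 (1.15 ± 0.16).

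Tapbp, which loads peptides onto class I molecules, had means of 101 in NSPs and 284 at 72 h with TNF. These groups were apart (1.51 ± 0.17), whereas the 72 h libraries without TNF, at 196, 268 and 247, overlapped those with TNF and differed by 0.26 (limma-trend adjusted p = 0.354). Irf9, a transcription factor of the interferon response, showed the same order, with 1.59 ± 0.18 against NSPs and 0.02 ± 0.18 between 72 h with and without TNF. Ifit1, an antiviral RNA-binding protein, was higher with TNF than in NSPs (1.53 ± 0.22) and than at 72 h (1.14 ± 0.22). Stat2, a signal transducer of the pathway, had a difference of 0.01, which limma-trend did not call, while total-read scaling (0.21, adjusted p = 0.0304) and loess offsets (0.27, 0.00334) called it higher.

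**Figure D4:**
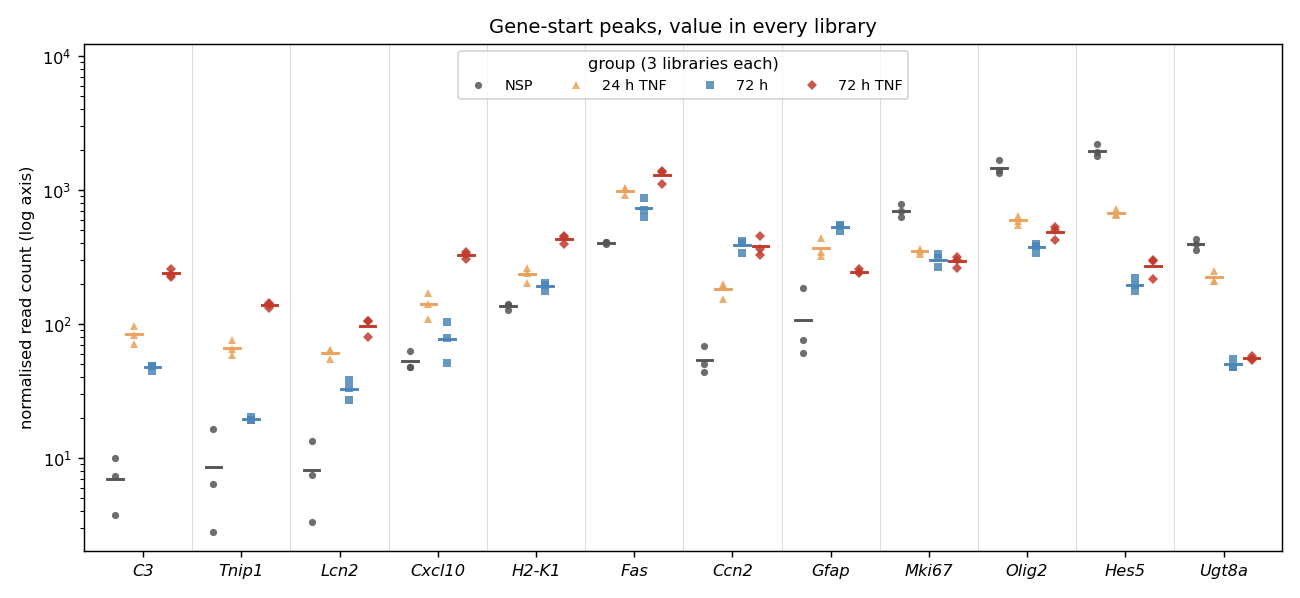
Normalised read count (log axis) of the gene-start peak of 12 genes in each library of NSPs, 24 h TNF, 72 h and 72 h TNF, with 3 points per group and the group mean as a bar. C3, Tnip1, Lcn2 and Cxcl10 are highest at 72 h with TNF, Ccn2 is alike with and without TNF at 72 h, and Mki67, Olig2, Hes5 and Ugt8a are highest in NSPs.

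Of the NSP identity genes, Hes5, a Notch-induced repressor that holds cells in the progenitor state, had 2209, 1809 and 1909.7 in NSPs and 218, 299 and 295 at 72 h with TNF. Every NSP library was above every TNF library, and Hes5 fell by 2.87 ± 0.16 on the log2 scale (limma-trend adjusted p = 2.2e-15). It was also low at 72 h without TNF (176, 221 and 195), where it differed from the TNF libraries by 0.44 (adjusted p = 0.0678). That difference was called with only these groups fitted (adjusted p = 0.0162) and without 72 h TNF replicate 1 (0.59, adjusted p = 0.0291). The Notch ligand gene Dll1 fell by 1.33 and the transcription factor genes Sox3 and Hes1 by 1.65 and 0.98.

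Egr1, an immediate early gene that the study used as a stem cell marker, had 2313, 2208 and 2181 in NSPs and 1047, 1134 and 1252 at 72 h with TNF. The NSP libraries were all higher, and Egr1 fell by 0.97 ± 0.10 (limma-trend adjusted p = 2.1e-09). Sox2, which maintains neural progenitors, had means of 1258 and 1038 and fell by 0.27 (adjusted p = 0.0431), a call lost under total-read scaling (0.517), loess offsets (0.935) and edgeR (0.0675). It was also lost without NSP replicate 1 (0.176), NSP replicate 2 (0.0748), 72 h TNF replicate 1 (0.126) or 72 h TNF replicate 3 (0.0869). The 2 higher members were Prom1, a membrane glycoprotein (mean 162 in NSPs and 285 with TNF, 0.81 ± 0.13), and Msi1, an RNA-binding protein (101 and 176, 0.77 ± 0.21). Cd44, the hyaluronan receptor, had 475 and 413 and was not called, though it passed as lower without NSP replicate 1 (limma-trend adjusted p = 0.0431).

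Of the proliferation genes, Mki67, which marks cycling cells, had 784, 625 and 704 in NSPs and 260.2, 302 and 318 at 72 h with TNF. The groups did not overlap, and Mki67 fell by 1.26 ± 0.12 (limma-trend adjusted p = 6.2e-10). Without TNF at 72 h the values were 309, 331 and 269, with a difference of -0.05 (adjusted p = 0.856). Ccnd1, the cyclin of the G1 phase that growth factors induce, fell by 1.46 from a mean of 440.3 to 159. Ccnb1, the mitotic cyclin, fell by 0.72 from 832 to 507.

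Not every member followed. Cdc20, an activator of the mitotic ubiquitin ligase, had 1037 and 1039 and was called higher under loess offsets only (limma-trend adjusted p = 0.0129), and Top2a, the DNA topoisomerase of dividing cells, had 462 and 547. Top2a was called higher under total-read scaling (limma-trend adjusted p = 0.0138) and without NSP replicate 1 (0.0391). A second peak lies 266 bp outside an end of Aurkb, a mitotic kinase gene of unknown strand in the gene table, at chr11:69051680-69052180. It had 2.92, 2.83 and 2.66 in NSPs and 277, 310.4 and 286 at 72 h with TNF, while the peak closest to an Aurkb end fell from a mean of 326 to 228. These 2 of the 4 peaks nearest to Aurkb thus moved in opposite directions, by 6.26 ± 0.19 and -0.51. Which of them lies at the start is not known. The lower call was lost under total-read scaling (-0.31, limma-trend adjusted p = 0.0936).

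The astrocyte list was checked because the labels name the 72 h cells astrocytes, as they also do the NSPs. Of its 17 genes, 12 had a gene-start peak, of which 3 were higher and 7 lower than in NSPs, with a median difference of -0.62. Gfap, the intermediate filament of astrocytes, had 186, 75.8 and 61.1 in NSPs and 243, 257 and 239 at 72 h with TNF. The TNF libraries were all higher, by 1.36 ± 0.22 (limma-trend adjusted p = 4.3e-06), and NSP replicate 1 was the highest of its group. Without TNF at 72 h Gfap had 542, 493 and 552, so the libraries with TNF were lower by -1.10 ± 0.22 (adjusted p = 9.4e-04).

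Gpld1, a phospholipase that the study used as an astrocyte gene, had 150.1, 137 and 137 in NSPs and 428, 318 and 374 at 72 h with TNF, a difference of 1.39 ± 0.14. It did not differ detectably between 72 h with and without TNF (0.00 ± 0.14, limma-trend adjusted p = 0.99). Gja1, the gap junction protein of astrocytes, rose from a mean of 91.8 to 183 (1.04 ± 0.20). S100b, a calcium-binding protein of glia, fell instead, with 438, 579.9 and 668 in NSPs and 191, 195 and 194 at 72 h with TNF (-1.51 ± 0.15). Aldh1l1, the folate enzyme that marks astrocytes, and Kcnj10, their potassium channel, fell by 1.41 and 0.68. The gene-start peaks of defining astrocyte genes thus moved in both directions.

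The gliogenic regulators, the factors that open the astrocyte programme, had 2 of 16 gene-start peaks higher and 9 lower, with a median of -0.36. Nfib, a nuclear factor I gene, had 1367, 773 and 787 in NSPs and 291, 409 and 376 at 72 h with TNF. The groups were apart (-1.40 ± 0.18, limma-trend adjusted p = 1.3e-07), and NSP replicate 1 was the highest library. Lifr, the receptor for leukemia inhibitory factor, fell by 1.24 ± 0.15. Id1, an inhibitor of bHLH factors and a target of BMP signalling, rose from a mean of 396 to 714 (0.86 ± 0.12). Stat3, the transducer of IL-6 family cytokines, had 2580 and 2326 (-0.14, adjusted p = 0.299), and under loess offsets its sign turned to 0.19 (adjusted p = 0.0256).

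The contractile and matrix list had 6 of 15 gene-start peaks higher and 2 lower, with a median of 0.25. Ccn2, a matrix protein induced through YAP and TEAD, had 68.3, 43.8 and 50.5 in NSPs and 326, 364 and 457 at 72 h with TNF. These libraries were apart by 2.81 ± 0.17 (limma-trend adjusted p = 9.0e-15). The 72 h libraries without TNF, at 405, 339.7 and 416, overlapped those with TNF. Acta2, smooth muscle actin, likewise rose from a mean of 47 to 153 (1.75 ± 0.21) and differed by 0.01 between 72 h with and without TNF. Fn1 (fibronectin) and Flna (filamin) fell by 0.61 and 0.48.

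In the TGF-beta and Smad list, 1 of 14 gene-start peaks was higher and 7 were lower, with a median of -0.23. Smad6, which inhibits BMP signalling, had 474, 393 and 319 in NSPs and 959, 742 and 876 at 72 h with TNF (1.13 ± 0.13, limma-trend adjusted p = 1.0e-08). Every TNF library was higher, and 26 of the 29 peaks nearest to Smad6 were called higher, with a median of 1.25. Skil, a repressor of Smad complexes, fell by 1.42 from a mean of 2499 to 935, and the receptor gene Tgfbr1 fell by 0.94.

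The NRF2 list of antioxidant genes had 2 of 16 higher and 9 lower, with a median of -0.31. Osgin1, a stress-induced growth inhibitor, had 40.9, 53.2 and 36.5 in NSPs and 207, 183 and 198 at 72 h with TNF. Its groups were apart by 2.16 ± 0.18 (limma-trend adjusted p = 1.8e-11). Nqo1, a quinone reductase, went the other way, with 255, 371 and 396 in NSPs and 96.6, 121 and 106 at 72 h with TNF (-1.63 ± 0.18). Gclc and Gclm, the subunits of the enzyme that starts glutathione synthesis, fell by 1.04 and 0.78. The counts were 4 higher and 6 lower under total-read scaling.

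The glycogen and glucose list had 1 of 17 gene-start peaks higher and 14 lower, with a median of -0.60, and 2 higher and 13 lower under total-read scaling. Hk2, a hexokinase, had 1186, 1594 and 1638 in NSPs and 627, 729 and 787 at 72 h with TNF. The groups did not overlap (-1.03 ± 0.13, limma-trend adjusted p = 3.9e-08). Slc2a1, the glucose transporter GLUT1, fell by 0.68. The higher member was Pdk4, which holds back pyruvate oxidation, with means of 155 and 301 (0.99 ± 0.19).

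The AP-1 and C/EBP list had 1 of 13 gene-start peaks higher and 4 lower, with a median of -0.14, which turned to 0.06 under total-read scaling. The higher member was Cebpd, a transcription factor of the acute phase response, with 545, 548 and 535 in NSPs and 916, 856 and 1009 at 72 h with TNF. The TNF libraries were all higher (0.77 ± 0.10, limma-trend adjusted p = 2.7e-07), and also higher than the 474, 518 and 495 without TNF at 72 h (0.90 ± 0.10). Fos and Jun, the partners in AP-1, fell by 0.93 and 0.74.

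The nuclear receptor and retinoid list had 2 of 12 higher and 3 lower than in NSPs, with a median of -0.22. Rarb, a retinoic acid receptor, rose from a mean of 219.7 to 342 (0.62 ± 0.15, limma-trend adjusted p = 8.5e-04). Aldh1a1, an enzyme that makes retinoic acid, had 179, 102 and 98.3 in NSPs and 148, 117 and 121 at 72 h with TNF, which overlapped (0.07 ± 0.18, adjusted p = 0.744). Without NSP replicate 1 the difference was 0.35 and was called (adjusted p = 0.048). Without TNF at 72 h it had 333, 331 and 261, and the libraries with TNF were lower by -1.25 ± 0.18 (adjusted p = 1.5e-05).

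Markers of other lineages are given beside the 47% of all gene-start peaks that were lower than in NSPs. The oligodendrocyte list had 5 of 10 gene-start peaks lower and 0 higher, with a summed value of 4124 to 4606 in NSPs and 2044 to 2242 at 72 h with TNF. Ugt8a, an enzyme of myelin lipid synthesis, had 431, 356 and 396 in NSPs and 53.6, 57.6 and 55.2 at 72 h with TNF. The groups were far apart (-2.80 ± 0.20, limma-trend adjusted p = 1.1e-12). Olig2, the lineage factor that neural progenitors also carry, had 1339, 1402 and 1673 in NSPs and 422, 501 and 530.5 with TNF (-1.60 ± 0.11).

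The neuron list had 10 of 15 lower (7 with total-read scaling) and 0 higher, with sums of 4574 to 5342 in NSPs and 3160.5 to 3421 at 72 h with TNF. In both lists, 0 were higher by limma-trend, edgeR and DESeq2, with both other scalings and at an unadjusted p under 0.05. Eomes, a factor of neuronal precursors, fell by 1.35 from a mean of 161 to 62.7. Tubb3, a tubulin of neurons, had 256 and 276 and did not pass. The microglia list had 1 of 4 lower and sums of 899 to 915 in NSPs and 927 to 943 with TNF. Its lower member was P2ry12, a purine receptor of microglia (mean 82.6 and 43.2). The endothelial list had 3 of 3 lower, 2 of them also with total-read scaling (sums of 544 to 616 and 270.5 to 350.5), and the pericyte and fibroblast list had 3 of 4 lower (1645 to 1741 and 1102 to 1126). The part of these lineages in the other results was not tested.

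Of the 22 genes the study named, 18 had a gene-start peak, of which 8 were higher and 3 lower, with a median of 0.09. The study drew on earlier datasets for astrocyte markers and named these genes when reporting this experiment. Their count is therefore not independent evidence of a direction.

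Ranked by p-value, the leading peaks mostly lay away from gene starts, as did 75247 of all 88688 peaks tested. Within Palld, which encodes an actin-bundling protein, a peak at chr8:61573473-61573973 had 10.5, 11.3 and 9.3 in NSPs and 580.2, 585 and 595 at 72 h with TNF. The libraries of each group were close to each other and the groups were apart by 5.70 ± 0.14 (limma-trend adjusted p = 5.0e-23). The 72 h libraries without TNF had 283, 227 and 303 and the 24 h TNF libraries 375, 386 and 401, so that this peak was highest at 72 h with TNF.

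Other higher peaks of this kind lay nearest to Arl4c, a small GTPase (58018 bp away, difference 5.45), within Gdpd5, a membrane phosphodiesterase (5.51), 7308 bp from the zinc finger gene Zc3h4 (5.10), within the receptor gene Ror1 (4.63) and within the TGF-beta receptor gene Tgfbr2 (3.86). Those nearest to Ddx10 (5.60), Tcim (5.57) and Celf4 (6.07) lay 33238, 72267 and 2173872 bp away. The peak in Tgfbr2 at chr9:116152673-116153173 had 66.6, 72.5 and 65.8 in NSPs and 986, 1008 and 1018 at 72 h with TNF, while the gene-start peak of Tgfbr2 had means of 377 and 390.2.

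A single higher peak with a smaller p lay on the patch sequence CHR_MG4266_PATCH, with 0.584, 0.471 and 0.664 in NSPs and 1342, 1407 and 1497 at 72 h with TNF. The NSP values are those of 1 read. At this peak, the 72 h libraries without TNF, which carry the Luc tag, had a mean of 1238. The 24 h TNF libraries, which do not carry it, had a mean of 1. Tag and time cannot be told apart in these values. Among the peaks tested, 15 had 3 reads or fewer in all 9 libraries without the tag, and all 15 were called higher. Such peaks are low in NSPs by choice and could pass the filter only through tagged libraries. The direction of their calls was therefore largely fixed in advance. Of the 15, 4 had at least 20 reads in all 10 tagged libraries, and all 4 lay on patch sequences. Leaving the 15 out changed the calls to 25807 higher and 27233 lower.

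Ranked in the same way, the lower peaks were led by a peak within Xylt1, a xylosyltransferase that starts proteoglycan chains, at chr7:117462471-117462971. It had 2323, 2335 and 2773 in NSPs and 194, 183 and 184 at 72 h with TNF. The groups did not overlap, and the peak fell by 3.72 ± 0.14 (limma-trend adjusted p = 4.2e-19). It had 206, 242 and 256 at 72 h without TNF. Others lay 17528 bp from the adaptor gene Traf3ip2 (-3.14), within the transaminase gene Gpt2 (-2.84), 135867 bp from the carbonic anhydrase related gene Car8 (-3.78), and within Rasa3 (-2.91), Nkain3 (-2.90) and Adarb2 (-2.73). The lower peaks nearest to Kiz (-3.01), Gatb (-2.59) and Irx1 (-2.90) lay 144868, 274033 and 450450 bp away.

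At gene starts, the higher peaks with the largest differences after Aurkb and C3 were those of Olfr1344 (4.65, an end of unknown strand), Lbp, the lipopolysaccharide binding protein (4.43, likewise), Crygs (4.32), Tnip1 (4.13), Spata6 (4.12), Palm3 (4.07), Itgb7, an integrin of leukocytes (3.97), and Heg1 (3.69). Lbp had 14, 11.3 and 10.6 in NSPs, 285, 266 and 281 at 72 h with TNF and 107, 98.1 and 95.6 at 72 h without it. All its TNF libraries were higher than the others, by 1.46 ± 0.20 against 72 h (limma-trend adjusted p = 9.4e-06). Palm3 and Itgb7 had lower means with TNF than without it at 72 h, at differences of -0.05 and -0.37 that did not pass.

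The lower gene-start peaks with the largest differences were led by that of Myt1. This gene encodes a zinc finger factor of neural progenitors and had 586, 641 and 801 in NSPs and 53.6, 31 and 62.4 at 72 h with TNF (-3.80 ± 0.28, limma-trend adjusted p = 1.7e-12). Kcnab2, a potassium channel subunit, fell by 3.41 and Syn2 encodes a synaptic vesicle protein (-3.21). The others were Trhr (-3.44), Ubxn10 (-3.12), Cnot7 (-3.09), Bricd5 (-3.09), Tle6 (-3.03), Hes5 (-2.87) and Myh11 (-2.84). Those of Trhr, Cnot7 and Myh11 lay at a gene end of unknown strand, which may not be the start. In all the lower peaks named here the libraries of the groups did not overlap, which the choice of these peaks required.

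The direct comparison of 72 h with and without TNF lies within the tagged libraries and within 1 medium. It called 5567 peaks higher (6.28%) and 4943 lower (5.57%), and at gene starts 424 higher (3.15%) and 127 lower (0.945%). The higher calls fell to 3612 without 72 h TNF replicate 3, and the lower calls to 2832 without 72 h replicate 1, 3122 without 72 h replicate 3 and 3279 without 72 h TNF replicate 3. With total-read scaling the split over all peaks turned to 4241 higher and 6623 lower. Against this background, 11 of the 21 NF-κB gene-start peaks, 7 of the 17 reactive astrocyte peaks and 6 of the 18 interferon and antigen presentation peaks were higher with TNF and 0 of each list lower, also at an unadjusted p under 0.05. Of the NF-κB peaks, 9 were higher by edgeR, 12 by DESeq2 and 8 with total-read scaling. In the reactive astrocyte list these counts were 5, 7 and 5, and in the interferon and antigen presentation list 6, 6 and 5. Of the 19 NSP identity and 19 proliferation peaks, 0 were called by limma-trend, edgeR or DESeq2, and 3 and 4 were higher at an unadjusted p under 0.05. In the astrocyte list, 4 of 12 were lower with TNF. Of the 130 peaks nearest to NF-κB genes, 50 were higher with TNF and 4 lower. The limit on the choice of the lists given above holds here too.

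The leading peaks of that comparison differed in how they stood to NSPs. Near Mefv, which encodes the inflammasome protein pyrin, a peak at chr16:3723209-3723709 had 5.26, 8.01 and 7.97 in NSPs, 6.43, 5.98 and 14 at 72 h and 426, 349 and 402 at 72 h with TNF. The libraries without TNF overlapped each other and were far below those with it (5.41 ± 0.33 against 72 h, limma-trend adjusted p = 6.0e-12). A peak 11098 bp from the metalloprotease gene Adamts20 had the same order, with 3.47 ± 0.20 against NSPs and 3.44 ± 0.20 against 72 h.

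A peak within Smad3, a transducer of TGF-beta signals, had 262, 393 and 355 in NSPs, 196, 194 and 172 at 72 h and 813, 856 and 937 at 72 h with TNF. Here the 72 h libraries were the lowest. Near Tlr2, a receptor for bacterial lipoproteins, the values were 27.5, 24.5 and 19.9 in NSPs, 147, 151 and 161 at 72 h and 693, 707 and 759 with TNF, so that they rose in 2 steps. Peaks within Sgce and Apobec1 were higher with TNF than in NSPs by 3.30 and 3.11 and than at 72 h by 2.79 and 2.63.

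Of the 6 peaks named as lower with TNF than without it at 72 h, 3 overlapped the NSP libraries. Nearest to 1500009L16Rik, a peak had means of 156 in NSPs, 478 at 72 h and 157 with TNF. The TNF and NSP libraries overlapped, with a difference of -0.00 ± 0.14 (limma-trend adjusted p = 0.992), while TNF and 72 h differed by -1.60 ± 0.14 (5.2e-09). The peaks in Gabbr2, a GABA receptor gene, and near Trim29 also overlapped the NSP range (0.29 and 0.17 against NSPs, -2.94 and -1.42 against 72 h). Those near Tnp1 and Fchsd2 were lower than in either group (-0.73 and -1.16 against NSPs), and that in Smim5 was higher than in NSPs (1.09) and lower than at 72 h (-2.22).

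**Figure D5:**
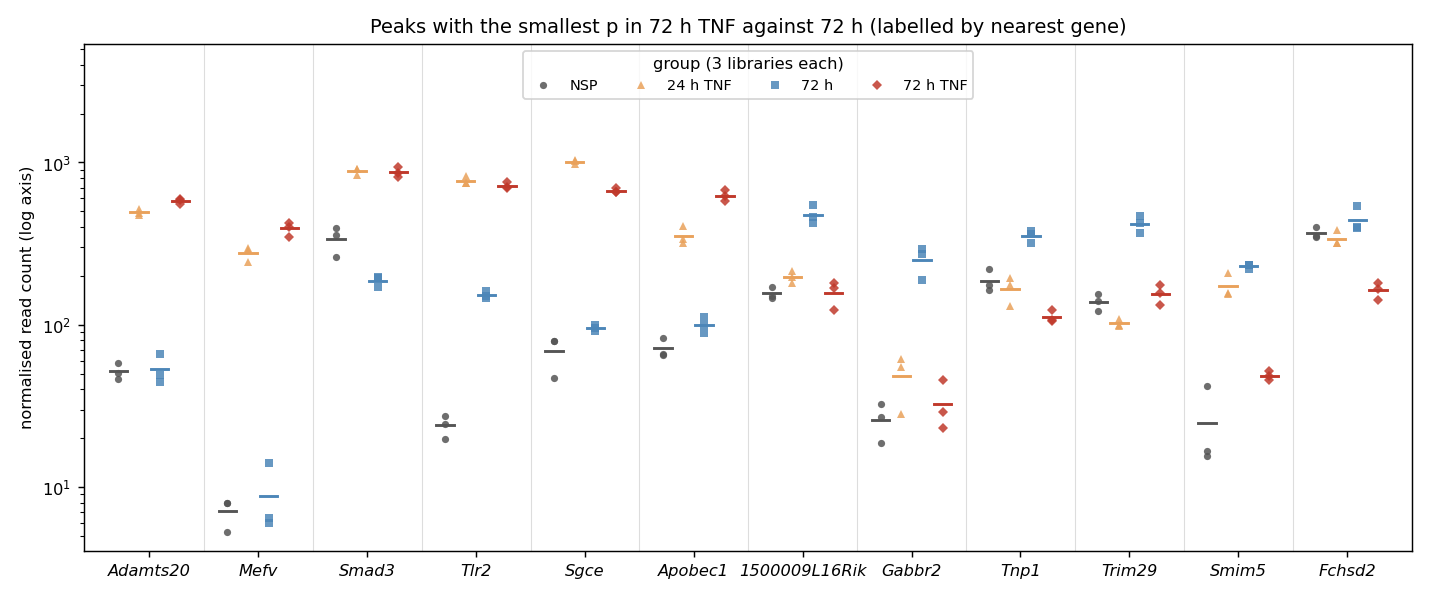
Normalised read count (log axis) in each library of NSPs, 24 h TNF, 72 h and 72 h TNF at the 12 peaks with the smallest p in either direction between 72 h with and without TNF, named by nearest gene, with group means as bars. The 6 peaks on the left are higher with TNF, and the 6 on the right are highest at 72 h without TNF.

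From 24 h to 72 h with TNF, 9135 peaks rose (10.3%) and 9914 fell (11.2%), a comparison in which time and the Luc tag cannot be told apart. The higher calls were 5763 without 72 h TNF replicate 1 and 5942 without 24 h TNF replicate 3. C3 was higher at 72 h (71.6, 83 and 97.6 at 24 h with TNF, difference 1.51, limma-trend adjusted p = 0.0033), as were Cxcl10 (1.24), Ccn2 (1.07), Gja1 (1.14) and H2-K1 (0.88). Hes5 and Ugt8a were lower (-1.33 and -1.99). Lcn2, Tnip1, Nfkbia and Mki67 had differences of 0.65, 1.04, -0.07 and -0.26, which did not pass the test.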

How the data were processed

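ATAC-seq was measured in 19 libraries, grouped by their sample titles. Per the study's methods and the submitters' processing notes, the authors trimmed reads (Trim Galore), aligned them to mm10 (Bowtie2), removed mitochondrial reads (SAMtools), called peaks (MACS2) and removed blacklisted regions. The shift of reads for the transposase, the treatment of duplicates and the tool versions are not given in the sources used here. The values deposited by the authors are a signal, a normalised read count for each peak, and in every library 100% of them were whole multiples of its lowest value (tolerance 0.001), so reads could be recovered. Intervals of 500 bp are given as in the table.

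The members and lists were chosen with earlier results of these data known. Because values were normalised, log2(value + 1) of all 19 libraries was modelled by limma-trend with a mean per group (R 4.3.3 with limma 3.58.1). Peaks passed edgeR's filterByExpr with a minimum count of 10. P-values were two-sided and adjusted over 88688 peaks (Benjamini-Hochberg). The fit was tested on simulated data. Alternatives covered scaling, edgeR 4.0.16 and DESeq2 1.42.0 on recovered reads, the pseudocount, the filter, the samples fitted, a replicate block, single libraries and the distance to a start. The comparison without the peaks low in untagged libraries and that with known strands only were chosen after seeing the data.

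Gene starts came from a RefSeq table of GRCm38.p6, the assembly of mm10. Strand was known for 17492 of 21900 protein-coding genes, and either end was used for the other 4408. A promoter sequence was found for 10385 gene-start peaks.

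Named peaks were, in each direction, the 10 with the smallest p against NSPs, the 10 gene-start peaks with the largest difference and a mean of 50 or more in the higher group, the 6 with the smallest p against 72 h (at most 1 per nearest gene for the lists by p), all without overlap between groups, the genes the study named, and the 3 members of each list with the smallest p. Other list members in the text were picked after their values were seen.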

Additional observations from a re-analysis of the deposited data

How the results depend on the processing

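The 192 results on named peaks gave 3610 values under the alternatives, of which 3510 kept their direction and side of the threshold, 69 lost the call, 30 gained it and 1 turned its direction, Stat3 under loess offsets (0.19). The calls between 72 h TNF and NSPs ranged from 23518 to 26372 higher and from 23827 to 27110 lower when a single library was left out. Fitting only these groups gave 23218 higher and 24702 lower, and 970 and 5254 at gene starts. At gene starts, higher calls rose to 2166 with total reads, to 2001 with loess offsets and to 2149 within 2.5 kb, and lower calls fell to 4106 with total reads. For 72 h TNF against 72 h, fitting only these groups gave 9095 higher and 7991 lower, and leaving out a single library gave 3612 to 4275 higher and 2832 to 3623 lower. For 72 h TNF against 24 h TNF, fitting only these groups gave 14400 and 15229, and leaving out a library gave 5763 to 6661 higher. The causes were not tested, except that fewer libraries were fitted. Depth limits peaks near 1 read, and NSP libraries were deeper than the others.

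Whether replicate numbers pair the samples is not stated and was not settled here. NSP and 72 h TNF libraries with the same title number deviated with correlations of -0.019 to 0.022. The numbers in the library names match 72 h TNF replicate 1 to NSP replicate 2 (0.025) and 72 h TNF replicate 2 to NSP replicate 3 (0.033). With a replicate block by title number, the calls were 22552 higher and 23749 lower against NSPs, 10215 and 8175 against 72 h, and 14328 and 15267 against 24 h TNF. With a replicate block by the number in the library name, they were 26891 and 29834 against NSPs.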

Other observations

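The genes with the most nearest peaks higher at 72 h with TNF than in NSPs were Shroom3, an actin-binding protein of the apical cell border (31 of 39 peaks, median log2 difference 1.51), the nuclear receptor gene Rora (27 of 54), the transcription factor gene Npas3 (27 of 60) and Smad6 (26 of 29). Those with the most lower peaks were Zfp608 (35 of 72), Gse1 (34 of 60), Auts2 (34 of 71) and Xylt1 (32 of 54). A gene with more peaks can reach more calls, and these genes were picked by their counts.

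On chromosome X, 23.7% of 2081 peaks were higher and 37.6% lower, with a median of -0.22. On unplaced and patch sequences, 57 of 120 peaks (47.5%) were higher and 5 (4.17%) lower, with a median of 1.04. Over all peaks, 29.1% were higher and 30.7% lower. The 120 include the 4 patch peaks described above that were low in all libraries without the Luc tag. Between 72 h with and without TNF, 0 of the 120 were called higher and 2 lower.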
